A study of Mus musculus with 4 samples.

Results

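Glycolysis and the response to low oxygen were followed through 40 genes, picked by name from what they are known to do. They were 17 glycolytic enzymes, 4 transporters of glucose and lactate, 8 kinases that set the entry of sugar into glycolysis or of pyruvate into the mitochondrion, and 11 other genes known as targets of hypoxia-inducible factor (Hif). These are 40 of the 28095 gene names on the array and hold 74 of its 41174 probes that are not controls. Each gene was read at its brightest probe, the probe with the highest mean log2 value over the 4 arrays, and 37 of the 40 genes were bright enough there to be tested.

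RNA came from LSK cells, bone marrow cells that lack lineage markers and carry Sca-1 and c-Kit, a population that includes the hematopoietic stem cells. All mice were C57BL/6J and carried both floxed Meis1 alleles (Meis1 fl/fl). The Meis1-KO group also carried the Mx1-Cre transgene, which interferon switches on and which poly(I:C) therefore activates, and the Meis1-WT group did not. Poly(I:C) is described as 4 intraperitoneal injections of 1.5 µg per g of body weight, given to mice between 4 and 8 weeks of age. The sample labels give it to both genotypes, whereas the design text calls the controls sham-treated, so the loss of Meis1 and an interferon response to poly(I:C) cannot be told apart in these arrays. Mx1-Cre is not limited to blood cells, and cells around the LSK cells in the marrow may have lost Meis1 too. Each genotype was measured in 2 pools of mice, 1 pool per array, so a p-value here measures the spread between 2 pools. Slide 1 held replicate 1 of both genotypes and slide 2 held replicate 2.

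Glycolysis turns glucose into pyruvate and then lactate without oxygen. In low oxygen Hif is spared from degradation, binds short sites in promoters and raises many glycolytic genes, together with *Vegfa*, *Bnip3* and others. Hematopoietic stem cells are known for leaning on glycolysis, and Meis1 has been proposed to act on that program through Hif1a, which is the question these genes address. *Hif1a* itself differed by -0.073 ± 0.43 on the log2 scale (log2 fold change of Meis1-KO over Meis1-WT ± SE, limma), with a 95% interval of -1.12 to 0.97.

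The arrays were not equally bright. The 75th percentile of the processed signal was 148 and 90.3 intensity units on the Meis1-KO arrays and 147 and 154 on the Meis1-WT arrays, and spots well above background made up 49.2% of the dim Meis1-KO 2 array and 54.7% to 57.4% of the other 3. All values below are log2 signals minus the 75th percentile of their array, so 0 is that percentile and a difference of 1 is 2-fold. The targeted gene was lower on both Meis1-KO arrays at both of its tested probes, at 0.25 and 0.22 against 1.02 and 1.45 for the brighter one, and whether these probes lie in the deleted exon was not analysed here. All 6 LSK markers were above background on every array. Their summed linear level, in multiples of the 75th percentile, was 253 and 283 in Meis1-KO and 277 and 262 in Meis1-WT. The sort removed cells carrying CD11b, Gr-1, TER119, B220 or CD3, markers of granulocytes, monocytes, red cell precursors, B cells and T cells. Markers of other cells differed between arrays in both directions. In Meis1-KO and Meis1-WT, 9 erythroid markers summed to 99.6 and 87.7 on slide 1 and to 245 and 23.4 on slide 2, 10 granulocyte and monocyte markers to 170 and 184 and then 117 and 60.6, and 7 cycling genes to 163 and 144 and then 234 and 144. The 6 megakaryocyte markers summed to 10.2 and 10.7 on slide 1 and to 12.9 and 36.6 on slide 2, the 11 B lineage and plasma cell markers to 16.6 and 43.7 and then 33.2 and 20.4, and the 7 T lineage markers to 0.40 and 0.58 and then 0.59 and 0.91. Of the B lineage and plasma cell markers 5 were above background on both Meis1-KO arrays and 6 on both Meis1-WT arrays, while *Pax5* and *Igll1* were above it on none. Of the T lineage markers none was above background on both Meis1-KO arrays and 2 (*Cd8a* and *Lck*) were on both Meis1-WT arrays, while *Cd3e* and *Cd3g* were above it on none.

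Most of the promoters at hand for these genes carry the letters that Hif is known to bind. The genes were picked as glycolytic genes and known Hif targets, so the share of such letters is not independent of that choice. RefSeq promoter windows of 300 bases (250 before the start site and 50 after it, GRCm38.p6) were at hand for 37 of the 40 genes, 57 windows in all, and not for *Slc2a3*, *Bnip3l* and *Ndrg1*. ACGTG or GCGTG, searched on both strands, was found in 44 of the 57 windows (77.2%) and in 43.8% of all 32841 windows. ACGTG alone was found in 50.9% of the members' windows and in 19.6% of all windows. The members' windows were also richer in G and C, with a median of 61% against 52.7% and 18 CG pairs against 7, and the part of base composition in these shares was not tested. TGACAG, the core that Meis proteins prefer, was found in 14% of the members' windows and in 19.2% of all windows. Such a match is a description of the letters, not a site shown to be bound.

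5 of these promoters are shown. *Vegfa* and *Hk3* had the largest differences in expression, *Pgk1* and *Ankrd37* read higher on both Meis1-KO arrays, and *Ldha* is a textbook Hif target. Only *Vegfa* met the study's criteria in any fit. Each is given as the 250 bases before the start site with every ACGTG or GCGTG, on either strand, in capitals (CACGT and CACGC are the same letters read from the other strand). They lie at chrX:106186850-106187099 (+) for *Pgk1*, chr7:46845554-46845803 (+) for *Ldha*, chr8:45999851-46000100 (-) for *Ankrd37*, chr13:55021386-55021635 (-) for *Hk3* and chr17:46032378-46032627 (-) for *Vegfa*.
Pgk1: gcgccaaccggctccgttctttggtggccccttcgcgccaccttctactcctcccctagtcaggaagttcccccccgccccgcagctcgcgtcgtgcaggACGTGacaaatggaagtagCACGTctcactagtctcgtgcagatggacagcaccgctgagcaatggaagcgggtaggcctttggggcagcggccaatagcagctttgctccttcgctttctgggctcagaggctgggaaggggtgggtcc
Ldha: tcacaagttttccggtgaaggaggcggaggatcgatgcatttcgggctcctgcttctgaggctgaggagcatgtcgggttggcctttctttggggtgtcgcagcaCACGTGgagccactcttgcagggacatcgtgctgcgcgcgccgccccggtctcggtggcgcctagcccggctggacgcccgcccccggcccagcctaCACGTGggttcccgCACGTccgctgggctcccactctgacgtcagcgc
Ankrd37: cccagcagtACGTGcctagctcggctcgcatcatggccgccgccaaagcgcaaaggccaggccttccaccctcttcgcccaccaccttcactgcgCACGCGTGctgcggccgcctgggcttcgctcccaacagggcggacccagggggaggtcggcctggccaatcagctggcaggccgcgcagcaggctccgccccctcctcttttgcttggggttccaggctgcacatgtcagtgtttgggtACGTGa
Hk3: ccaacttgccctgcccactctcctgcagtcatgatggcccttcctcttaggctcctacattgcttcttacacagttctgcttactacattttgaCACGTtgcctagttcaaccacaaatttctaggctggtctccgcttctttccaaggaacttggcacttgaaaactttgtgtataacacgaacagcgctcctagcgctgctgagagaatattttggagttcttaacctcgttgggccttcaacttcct
Vegfa: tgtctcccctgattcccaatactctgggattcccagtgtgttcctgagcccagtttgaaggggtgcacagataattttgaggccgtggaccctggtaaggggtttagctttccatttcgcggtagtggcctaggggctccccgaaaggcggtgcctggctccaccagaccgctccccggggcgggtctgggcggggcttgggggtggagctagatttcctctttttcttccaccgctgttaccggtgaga
*Pgk1* has a pair of cores facing opposite ways, starting 150 and 131 bases before the start site. *Ldha* has the palindrome CACGTG in 2 places, each counted once per strand, and a further core 34 bases before the start. *Ankrd37* has 4 cores, 1 of them 6 bases before the start, and *Hk3* has 1. *Vegfa* has none in this window, which is the outer of its 2 windows, and the other window holds 2.

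No member passed both cutoffs that the study used to call a gene, a p under 0.01 without adjustment and more than 2-fold change (the criteria below). That was 0 of 37 by limma, where 0.736% of the 22007 tested probes met them, and 0 by the methods' t-test, where 0.136% did. With the slide as a block, 1 of 37 met them, *Vegfa*, which was lower, where 1.99% of all tested probes did and 1.4% did so as lower probes. At an unadjusted p under 0.05, 0 members passed by limma (2.81% of tested probes), 1 with the slide as a block (*Vegfa*, 6.07%) and 1 by the methods' t-test (*Pkm2*, 2.4%). The smallest adjusted p among members was 0.983 by limma and 0.498 with the block. Counts of 0 or 1 in 37 are close to what the whole array gave.

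The precision was low, with standard errors of 0.42 to 0.94 and a median of 0.48 on the log2 scale. For 0 of 37 members did the 95% interval lie within 2-fold either way (0% of tested probes). Limma pools the spread over probes, so even *Pkm2*, whose replicates lay close together, had an interval of -0.85 to 1.18. This count therefore describes the pooled spread more than the members. A 2-fold fall lay outside the interval of 18 members (41.3% of tested probes) and a 2-fold rise outside that of 11 (27.8%). At this precision a 2-fold change in at least 1 direction lay within the interval of every member, so an absence of change was not shown for any.

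**Figure D1:**
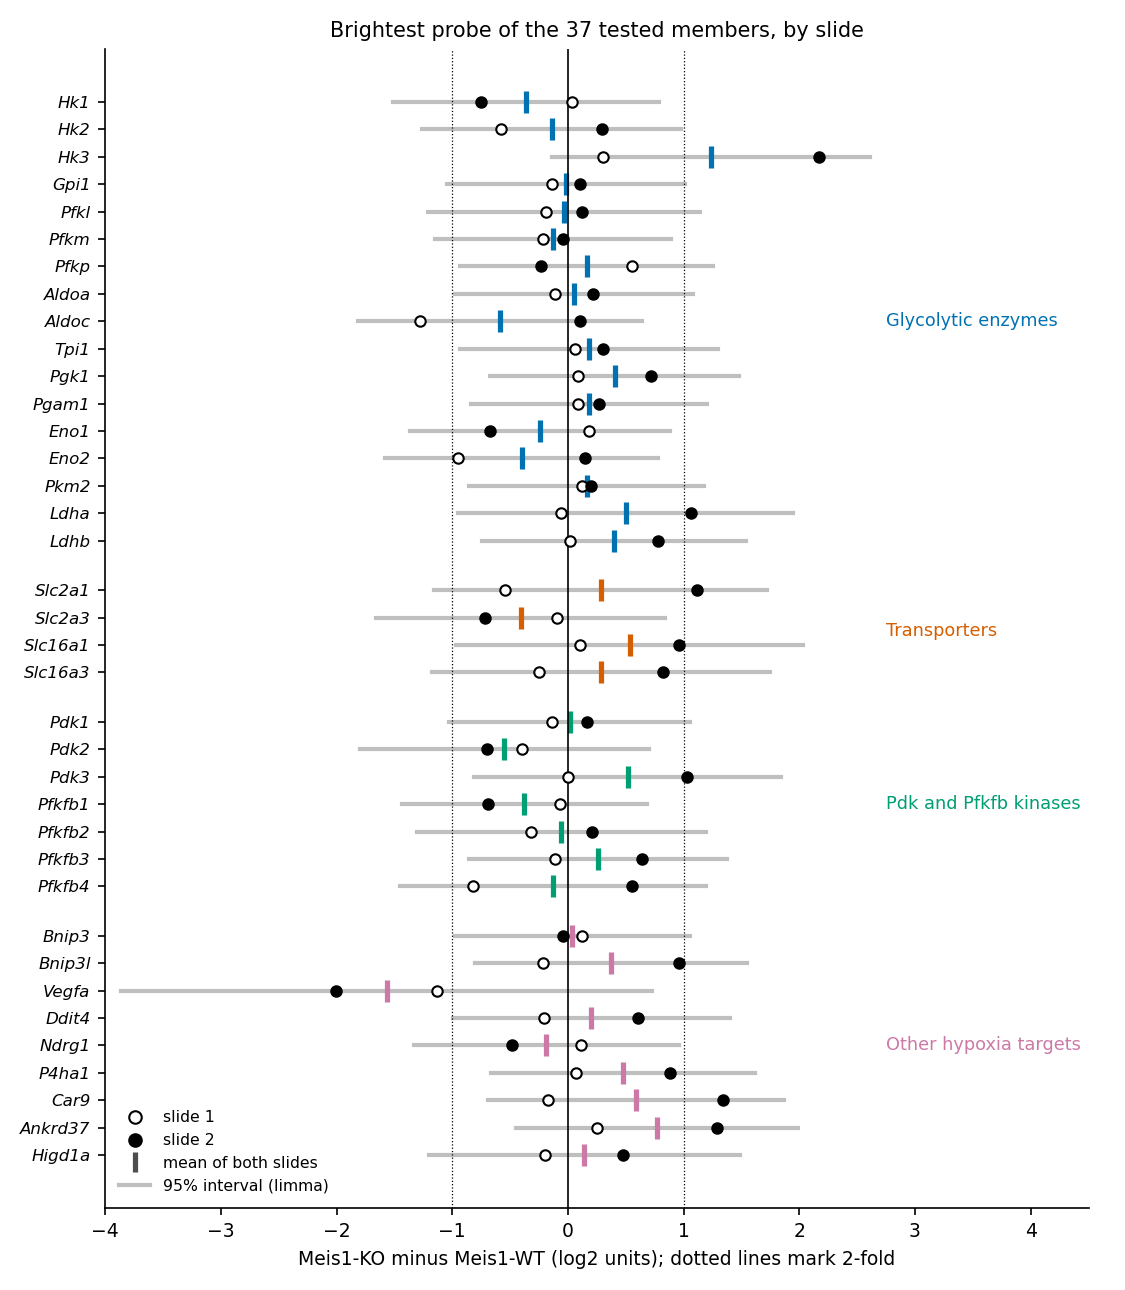
Difference between Meis1-KO and Meis1-WT (log2 units, x axis) at the brightest probe of the 37 tested members, grouped by role. Open circles are slide 1, filled circles slide 2, colored ticks the mean of both and gray bars the 95% interval from limma. The interval of every member crosses 0, and 27 of 37 filled circles lie to the right of 0 against 15 open ones.

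The glycolytic enzymes, all 17 of them tested, centered near no difference, with a median log2 fold change of 0.050 against 0.082 over all tested probes. 9 were higher in Meis1-KO and 8 lower. The sign of the median depended on the scaling, since quantile normalization gave -0.18 and normexp background correction -0.027. *Hk3*, the hexokinase best known from myeloid cells, differed most. *Hk3* (chr13:55107900-55107959 in the mm9 annotation of the array, minus strand) read 2.44 and 3.21 in Meis1-KO and 2.14 and 1.04 in Meis1-WT. Both Meis1-KO arrays lay above both Meis1-WT arrays, but by 0.31 on slide 1 and by 2.17 on slide 2, where the Meis1-WT array was the lowest of the 4. The log2 fold change was 1.24 ± 0.57, with an interval of -0.13 to 2.61 and an unadjusted p of 0.0695 (adjusted p = 0.983, limma). Without Meis1-WT 2 the value was 0.69, and without Meis1-WT 1 it was 1.79. The granulocyte and monocyte markers, which share their cell types with *Hk3*, had their lowest sum on Meis1-WT 2, where 6 of the 10 read lowest, among them *Mpo* (6.87 and 6.36 in Meis1-KO, 6.56 and 5.55 in Meis1-WT) and *Ctsg*. *Elane* and *Prtn3* were highest on that array. Of 9 tested markers 3 were higher and 6 lower in Meis1-KO, and *Elane*, neutrophil elastase, met the criteria as lower (-1.57 ± 0.42, adjusted p = 0.983), opposite to *Hk3*. Of the 10 markers 8 were above background on both Meis1-KO arrays and 9 on both Meis1-WT arrays, none was below background on all 4, and their part in the *Hk3* values was not tested.

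*Hk1* and *Hk2* are the widely expressed hexokinases, which trap glucose in the cell. *Hk1* read 3.76 and 2.99 in Meis1-KO and 3.73 and 3.74 in Meis1-WT, a difference that came from Meis1-KO 2 alone (-0.36 ± 0.47). *Hk2* differed by -0.14 ± 0.46. In the next steps *Gpi1*, which interconverts glucose and fructose phosphates, differed by -0.016, and the phosphofructokinases *Pfkl*, *Pfkm* and *Pfkp*, which commit sugar to glycolysis, by -0.035, -0.13 and 0.16. *Pfkl* read 1.73 and 2.48 in Meis1-KO and 1.92 and 2.36 in Meis1-WT, higher on slide 2 than on slide 1 in both genotypes. At the brightest probes *Pfkm* was the 1 enzyme whose Meis1-KO arrays (0.65 and 0.69) both lay below its Meis1-WT arrays (0.86 and 0.73).

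Among the aldolases, which split fructose bisphosphate, *Aldoa* read 5.68 and 5.83 in Meis1-KO and 5.79 and 5.61 in Meis1-WT, values that overlapped (0.050 ± 0.42). *Aldoc* read -1.50 and -0.92 in Meis1-KO and -0.22 and -1.03 in Meis1-WT. It was low on every array except Meis1-WT 1, and its log2 fold change was -0.59 ± 0.50. *Tpi1*, triose phosphate isomerase, differed by 0.18 ± 0.46.

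*Pgk1*, phosphoglycerate kinase, read 5.73 and 6.26 in Meis1-KO and 5.65 and 5.54 in Meis1-WT. The genotypes did not overlap, with differences of 0.086 on slide 1 and 0.72 on slide 2 and a log2 fold change of 0.40 ± 0.44. *Pgam1*, phosphoglycerate mutase, differed by 0.18 and *Pkm2*, pyruvate kinase of muscle type, by 0.16, both without overlap, but *Pgam1* turned negative under quantile normalization and normexp and *Pkm2* under normexp. *Pkm2* read 3.30 and 3.31 in Meis1-KO and 3.18 and 3.11 in Meis1-WT. Its replicates lay so close together that the t-test, which takes each gene's own spread, gave a p of 0.046, whereas limma, which pools the spread, gave 0.712. *Eno1*, enolase, read 1.07 and 0.40 in Meis1-KO and 0.88 and 1.07 in Meis1-WT (-0.24 ± 0.46). *Eno2*, the neuronal enolase, read -2.94 and -2.65 against -1.99 and -2.80 (-0.40 ± 0.48). For both enolases the genotypes overlapped.

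*Ldha* makes lactate from pyruvate and is a textbook Hif target. It read 5.56 and 7.02 in Meis1-KO and 5.63 and 5.96 in Meis1-WT. Meis1-KO 2 stood above the other 3 arrays by at least 1.06, while slide 1 differed by -0.063, and the log2 fold change was 0.50 ± 0.60. A second *Ldha* probe gave the same picture, at 0.028 on slide 1 and 1.31 on slide 2. *Ldhb*, the isoform that favors the reverse reaction, read 4.41 and 5.17 in Meis1-KO and 4.39 on both Meis1-WT arrays, again high on Meis1-KO 2 alone (0.40 ± 0.47).

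**Figure D2:**
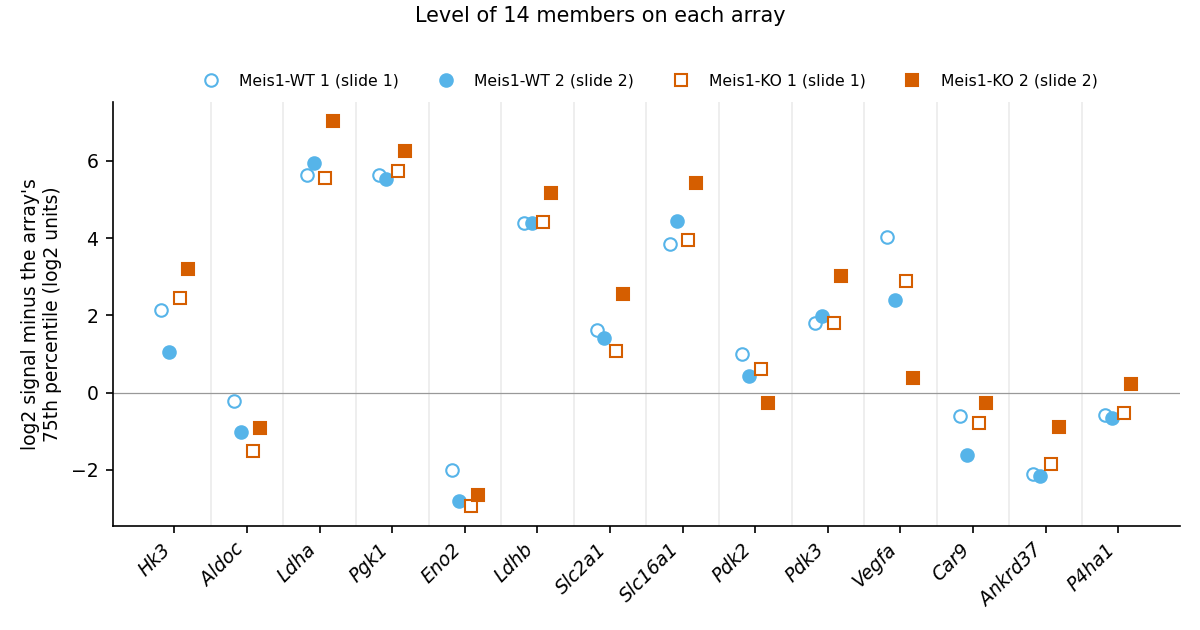
Level of 14 members on each of the 4 arrays, as log2 signal minus the 75th percentile of the array (y axis). Circles are Meis1-WT, squares Meis1-KO, open symbols slide 1 and filled symbols slide 2, and levels may be compared within a gene only. The filled square, Meis1-KO 2, is the highest symbol for Ldha (7.02), Ldhb, Slc2a1, Slc16a1, Pdk3, Ankrd37 and P4ha1 among others, and the lowest for Vegfa (0.39) and Pdk2.

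Of the transporters, 3 were higher and 1 lower, with none separated between genotypes. *Slc2a1*, the glucose carrier GLUT1, read 1.08 and 2.54 in Meis1-KO and 1.63 and 1.43 in Meis1-WT. The Meis1-KO arrays were the lowest and the highest of the 4, and the slides pointed opposite ways, at -0.54 and 1.12 (0.29 ± 0.59). *Slc2a3*, the carrier GLUT3, read 2.10 and 1.11 in Meis1-KO and 2.19 and 1.83 in Meis1-WT and was lower on both slides (-0.41 ± 0.51). *Slc16a1*, the lactate carrier MCT1, read 3.94 and 5.42 in Meis1-KO and 3.84 and 4.45 in Meis1-WT, and *Slc16a3*, the Hif-responsive lactate exporter MCT4, -2.39 and -0.93 against -2.14 and -1.75. Meis1-KO 2 was the highest array for both, and the values overlapped, with log2 fold changes of 0.53 ± 0.62 and 0.28 ± 0.60.

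GLUT1 and MCT1 are abundant in red cell precursors, whose TER119-positive stages the sort removed, and the erythroid markers had their highest sum on Meis1-KO 2, as given above. That sum is mostly *Hbb-b1*, at 6.55 and 7.93 in Meis1-KO and 6.30 and 4.46 in Meis1-WT. Of 6 tested markers 3 were higher and 3 lower in Meis1-KO, and *Rhag* met the criteria as higher, and *Slc4a1* was lowest on Meis1-KO 2. In all, 3 of the 9 read highest on Meis1-KO 2 and 4 read lowest there. Of 9 such markers 5 were above background on both Meis1-KO arrays and 6 on both Meis1-WT arrays, and none was below background on all 4. Their part in the transporter values was not tested, and in a bulk sample more cells of a type cannot be told apart from more RNA per cell.

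The pyruvate dehydrogenase kinases shut pyruvate out of the mitochondrion. *Pdk1*, the Hif-responsive one, read 2.34 and 2.65 in Meis1-KO and 2.48 on both Meis1-WT arrays, with no separation (0.014 ± 0.43). A dimmer *Pdk1* probe read 0.060 and 0.68 in Meis1-KO and -0.045 and -0.26 in Meis1-WT, higher without overlap (0.52 ± 0.46). *Pdk2* read 0.61 and -0.28 in Meis1-KO and 1.00 and 0.42 in Meis1-WT, lower on both slides though the genotypes overlapped (-0.55 ± 0.52). *Pdk3* read 1.80 and 3.02 in Meis1-KO and 1.80 and 1.99 in Meis1-WT, the same on slide 1 and 1.03 higher on slide 2 (0.52 ± 0.55). *Pdk4* was above background on 1 array of each genotype and was not tested, with readings of -3.04 and -5.05 in Meis1-KO and -4.29 and -3.60 in Meis1-WT.

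The 4 *Pfkfb* kinases set the level of fructose 2,6-bisphosphate, which speeds up phosphofructokinase. *Pfkfb3*, the most glycolytic of them, read 4.51 and 4.60 in Meis1-KO and 4.62 and 3.96 in Meis1-WT, where the low array was Meis1-WT 2 (0.26 ± 0.46). *Pfkfb4* differed by -0.13 and *Pfkfb2* by -0.057, with opposite signs on the slides. *Pfkfb1*, above background on 3 arrays, read -4.03 and -4.29 in Meis1-KO and -3.97 and -3.61 in Meis1-WT. Its genotypes did not overlap, but the values lay near background. It entered the test through Meis1-WT alone, where it read higher, so the filter partly set the direction. The difference of -0.38 ± 0.44 turned to 0.25 under normexp. Over the 7 kinases tested the median was -0.057, with 3 higher and 4 lower.

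*Vegfa*, the growth factor for blood vessels and a well known Hif target, differed most of all members. At its brightest probe (chr17:46154387-46154446, mm9, minus strand) it read 2.89 and 0.39 in Meis1-KO and 4.02 and 2.39 in Meis1-WT. Meis1-KO was lower by 1.13 on slide 1 and by 2.00 on slide 2, but Meis1-KO 1 lay above Meis1-WT 2, since both genotypes were lower on slide 2. The log2 fold change was -1.57 ± 0.94, a 2.96-fold lower mean, with an interval of -3.86 to 0.73 and an unadjusted p of 0.147 by limma (adjusted p = 0.983). With the slide as a block the unadjusted p was 0.00977 and the adjusted p 0.498. The value was -2.81 without Meis1-KO 1, where it met the criteria, and -0.32 without Meis1-KO 2.

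The other 3 *Vegfa* probes, which lie upstream of it in this minus-strand gene, gave smaller differences. The next one (chr17:46155512-46155571) read 0.088 and -0.14 in Meis1-KO and 0.90 and 0.55 in Meis1-WT. It was lower on both slides without overlap, at -0.75 ± 0.43. The probe at chr17:46162376-46162435 differed by -0.31 ± 0.53 and the one at chr17:46169039-46169098 by 0.16 ± 0.65, with opposite signs on the slides for the latter. The criteria were thus met at 1 of the 4 *Vegfa* probes, and on all 4 arrays under the block only.

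Of the other hypoxia targets tested, 7 of 9 were higher in Meis1-KO, with a median of 0.20, and *Vegfa* and *Ndrg1* were lower. *Ankrd37*, an ankyrin repeat gene known for a steep response to hypoxia, read -1.86 and -0.88 in Meis1-KO and -2.11 and -2.17 in Meis1-WT. Both Meis1-KO arrays lay above both Meis1-WT arrays, by 0.25 on slide 1 and 1.29 on slide 2, and the log2 fold change was 0.77 ± 0.50 with an interval of -0.45 to 1.99. Without Meis1-KO 2 it was 0.28. *Car9*, the carbonic anhydrase that exports acid from hypoxic cells, read -0.78 and -0.28 in Meis1-KO and -0.61 and -1.62 in Meis1-WT (0.59 ± 0.53). The genotypes overlapped, and slide 1 pointed down by 0.17 while slide 2 pointed up by 1.34.

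*P4ha1*, a collagen prolyl hydroxylase subunit, read -0.52 and 0.24 in Meis1-KO and -0.58 and -0.65 in Meis1-WT. The genotypes did not overlap, being 0.069 apart on slide 1 and 0.88 apart on slide 2 (0.47 ± 0.47). The mitophagy receptors *Bnip3* and *Bnip3l* differed by 0.039 ± 0.42 and 0.37 ± 0.48, the mTOR inhibitor *Ddit4* by 0.20 ± 0.49, the stress gene *Ndrg1* by -0.19 ± 0.47 and the mitochondrial *Higd1a* by 0.14 ± 0.55. None of these 5 was separated between genotypes at its brightest probe. A dimmer *Bnip3l* probe was higher without overlap, at 2.39 and 2.56 in Meis1-KO and 2.34 and 2.35 in Meis1-WT. At its brightest probe *Bnip3l*, which also clears mitochondria from maturing red cells, differed by -0.21 on slide 1 and by 0.96 on slide 2. The summed erythroid markers were higher in Meis1-KO on both slides, but that sum is mostly *Hbb-b1*. Of 6 tested erythroid markers 3 were higher and 3 lower, and their part in the *Bnip3l* values was not tested. *Adm*, the vasodilator adrenomedullin, was above background on Meis1-KO 2 only, at -2.64 against -4.87, -4.23 and -5.80 elsewhere. *P4ha2* was above background on Meis1-WT 1 only, at -3.19 against -5.97, -4.41 and -4.63. Neither was tested, and values this near background have no order.

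In all, 22 of 37 members were higher in Meis1-KO, where 56.3% of all tested probes were. The genotypes did not overlap, with Meis1-KO higher, for 7 of 37 members (*Hk3*, *Pgk1*, *Pgam1*, *Pkm2*, *Ldhb*, *P4ha1* and *Ankrd37*), where 16% of tested probes did so. They did not overlap with Meis1-KO lower for 2 of 37 (*Pfkm* and *Pfkfb1*), where 10.9% did, and *Pfkfb1* had entered the test through Meis1-WT alone. The first share was near that of the whole array and the second below it, and 5 of the 7 were enzymes.

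The slides gave different pictures. On slide 1, 15 of 37 members were higher in Meis1-KO (53.3% of tested probes), with a median difference of -0.11. On slide 2, 27 of 37 were higher (56%), with a median of 0.27. The direction was the same on both slides for 10 higher and 5 lower members, 40.5% of the 37 against 51.2% of all tested probes.

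The slide 2 difference went with brightness across the whole array. Of the 1459 tested probes with a mean log2 value above 4, 84.8% were higher in Meis1-KO on slide 2, with a median of 0.67, whereas the 5222 probes below -2 had a median of -0.25. On slide 1 the same medians were -0.033 and 0.087. The 10 members above 4, among them *Ldha*, *Pgk1*, *Ldhb*, *Slc16a1* and *Ddit4*, were all higher on slide 2, with a median of 0.62, beside the 0.67 of all probes that bright. The 10 members between 2 and 4 had a median of 0.18 on slide 2 beside 0.41 for all such probes, and the 8 between 0 and 2 had -0.14 beside 0.18. The 7 members between -2 and 0, which include *Ankrd37*, *Car9*, *P4ha1*, *Slc16a3* and *Pfkfb4*, were all higher on slide 2, with a median of 0.82 beside 0.0057 for the 6689 probes in that band. *Aldoc* and *Pfkfb2* were the other two. On slide 1, 2 of these 7 were higher, with a median of -0.25. The part of the dim Meis1-KO 2 array in the members' values was not tested further.

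**Figure D3:**
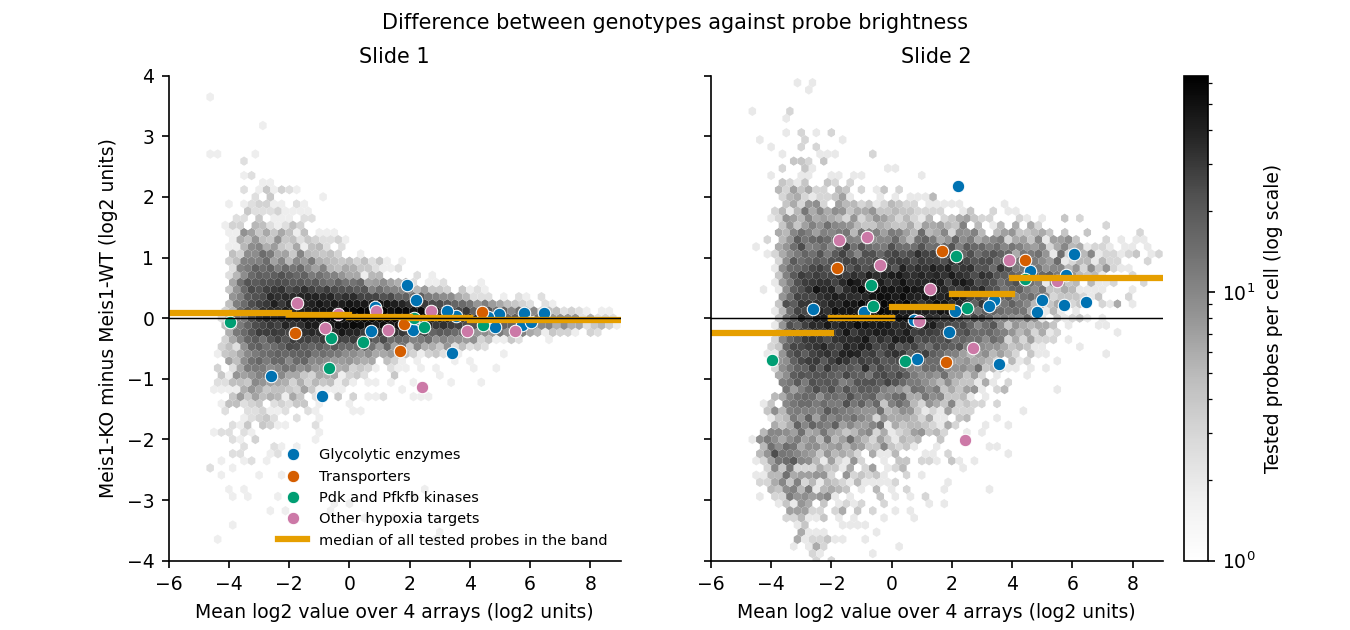
Difference between Meis1-KO and Meis1-WT (log2 units, y axis) against the mean log2 value over 4 arrays (x axis) on slide 1, left, and slide 2, right. Gray cells count the tested probes (darker is more, log scale; probes beyond the axes are not drawn), colored points are the 37 tested members and orange bars the median of all tested probes in a band of brightness. The orange bars stay near 0 on slide 1 and climb from -0.25 to 0.67 on slide 2, and the members above 4 lie around the last bar.

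Where a gene had several probes, they did not always tell the same story. Of the 74 member probes 66 were tested, 36 of them higher and 30 lower in Meis1-KO, and 18 members had 2 or more. The tested probes had mixed signs in 7 of these 18 (*Aldoa*, *Higd1a*, *P4ha1*, *Pkm2*, *Slc16a1*, *Slc2a3* and *Vegfa*). In none of the 7 did probes differ in sign with both values above 0.5 in size. A dimmer probe of *Eno2*, *Higd1a*, *Pfkfb2*, *Pkm2* and *Tpi1* entered the test through 1 genotype alone, which partly set its sign. All 5 tested *Hk1* probes were lower, from -1.02 to -0.021, and at each of them Meis1-KO 2 was the lowest of the 4 arrays. The largest difference at a *Pfkfb2* probe (-1.47 ± 0.69), one well above background on all 4 arrays, came from slide 2, at -2.80, against -0.15 on slide 1. For *Slc2a3* the odd probe, at 0.77, is placed by the annotation on chromosome 17 and not on chromosome 6 with the other two, so its gene is uncertain. *Ldha*, *Pgk1* and *Pdk3* probes differed from each other by at most 0.17.

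**Figure D4:**
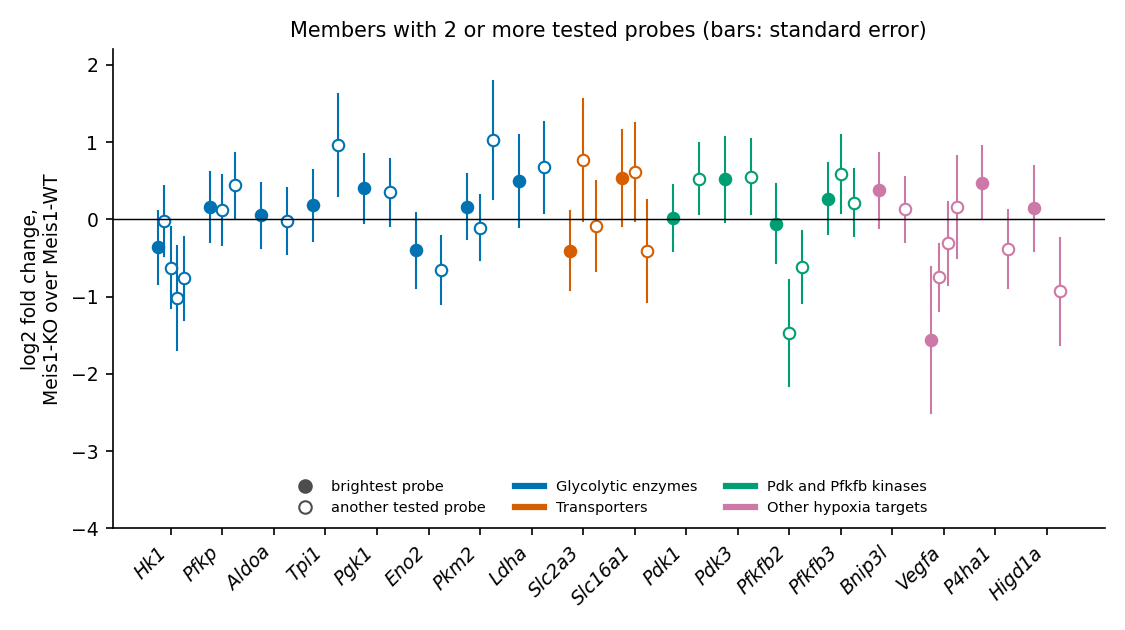
Log2 fold change of Meis1-KO over Meis1-WT (y axis) at each tested probe of the 18 members that had 2 or more, with bars of 1 standard error from limma. Filled points are the brightest probe of a gene and open points the others, colored by role. The 4 Vegfa points run from -1.57 to 0.16, and the 5 Hk1 points all lie below 0.

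Genes of the same and neighboring pathways that are not among the 40 were also counted. Of 17 tested further genes of sugar breakdown and synthesis, 12 were higher and 5 lower, with a median of 0.24. Of all tested probes 56.3% were higher and 0.736% met the criteria. The 1 gene of this list that met them was *Pklr*, the pyruvate kinase of liver and red cells. *Pklr* read -4.85 and -5.48 in Meis1-KO, not well above background on either array, and -3.37 and -2.66 in Meis1-WT, which makes it at least 1.64-fold lower (adjusted p = 0.983). It entered the test through Meis1-WT alone, so the filter partly set its direction, and the same holds for *Pgf* below. *Gapdh* differed by -0.045. *Fbp1*, which runs the pathway backward, read 2.48 and 3.69 in Meis1-KO and 2.05 and 1.63 in Meis1-WT without meeting the criteria (1.24 ± 0.55).

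Of 30 tested further hypoxia-response genes, 13 were higher and 17 lower, with a median of -0.13. The 1 that met the criteria, as 0.736% of all tested probes did, was *Pgf*, a relative of *Vegfa*. It read -5.22 and -5.42 in Meis1-KO, not well above background, and -3.26 and -3.08 in Meis1-WT, at least 1.47-fold lower (adjusted p = 0.866, limma). Of the 26 genes of this list above background on all 4 arrays, 13 were higher and 13 lower, 6 of them lower without overlap (8.13% of the tested probes above background on all 4 arrays) and 1 higher without overlap (17.1%), a tally made after the values were seen.

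The routes that glycolysis feeds had positive medians and no call. All 8 genes of pyruvate dehydrogenase, its phosphatase and the pyruvate carrier were higher (median 0.47), where 56.3% of all tested probes were higher. So were 14 of 17 genes of the TCA cycle (0.26) and 6 of 8 of the pentose phosphate pathway (0.39). Of these 33, 0 met the criteria, where 0.736% of all tested probes did. Their medians on slide 1 were -0.013, 0.063 and -0.11, and on slide 2 they were 0.88, 0.44 and 0.88. On slide 2, 71.9% of all tested probes with a mean log2 value between 2 and 4 and 84.8% of those above 4 were higher as well. Some genes of these lists were dimmer, and of all probes between 0 and 2 and between -2 and 0, 59.4% and 50.2% were higher there.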

How the data were processed

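LSK RNA (10 ng per pool, Cy3) was hybridized to 1-color arrays of 60-base probes. The authors deposited spot intensities from Feature Extraction 9.5.3.1 per the file headers (9.1 in the submitters' processing notes), background-subtracted and detrended within each array but not scaled between arrays. Groups came from the sample labels. Control and outlier spots were dropped, spots of a probe averaged, and log2 values centered on the 75th percentile of each array. Testing required a probe to be well above background in 1 genotype or both, on each of its 2 arrays. Genotypes were compared with limma 3.58.1 in R 4.3.3 (lmFit, eBayes, Benjamini-Hochberg over 22007 probes), and the fit was tested on simulated data. Same-numbered arrays share a slide and deviated together across probes (correlation 0.266), so the slide was also fitted as a block. With 2 arrays a side the exact permutation p is at least 0.333, so none was used.

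Symbols and positions are those of the array's design (mm9); 64 of 74 member probes matched a RefSeq accession of GRCm38.p6, which was used for names and promoter sequences only, and *Pkm2* is *Pkm* there. Exons were not analysed here. The members and lists were chosen with earlier results of these data known. Members named with values on each array were those meeting the criteria with or without the block, the 5 largest differences among enzymes and among the others, and the brightest member of each isozyme family. *Ldhb*, *Pfkm*, *Pkm2*, *Slc2a1*, *Slc16a3*, *Pdk3*, *Pfkfb1*, the untested members and the genes named from the other lists were chosen after their values were seen.

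Alternatives were median scaling, quantile normalization, normexp (offset 50), the series matrix values, no filter, keeping outlier spots, a filter on all 4 arrays, the median over all tested probes of a gene, the slide block, an intensity trend, the methods' t-test, and each array left out.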

Additional observations from a re-analysis of the deposited data

How the results depend on the processing

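Of the 37 members, 10 kept their sign under all 15 alternatives, 14 changed sign under an alternative that left out no array, 24 did when an array was left out, and the cause was not tested. With the replicate block (slide as a paired term), 1 member met the criteria in place of 0, and with an array left out 0 to 1 did, in both cases *Vegfa* and the latter without Meis1-KO replicate 1; the block changed no other member's call. Over all probes 162 met the criteria. The count was 437 with the replicate block, 49 with normexp, 294 with no filter, 53 with a filter on all 4 arrays, 101 with an intensity trend, 30 by the methods' t-test, and 107 (without Meis1-WT replicate 1) to 2215 (without Meis1-KO replicate 1) with an array left out. Without Meis1-KO replicate 2 it was 296. These fits take the spread of a single remaining array from the other genotype. The share of calls that were lower was 81.5%, and 95.9% with normexp. The enzyme median moved from 0.050 to -0.176 under quantile normalization. Median scaling turned *Gpi1* to 0.070, *Pfkl* to 0.051 and *Pfkfb2* to 0.029. Quantile normalization turned *Aldoa* to -0.24, *Tpi1* to -0.093, *Pgam1* to -0.19, *Pdk1* to -0.14 and *Ddit4* to -0.053. Normexp turned *Pfkp* to -0.0071, *Aldoa* to -0.16, *Tpi1* to -0.024, *Pgam1* to -0.027, *Eno2* to 0.13, *Pkm2* to -0.025, *Pdk1* to -0.17, *Pfkfb1* to 0.25, *Pfkfb2* to 0.034, *Bnip3* to -0.068 and *Ddit4* to -0.010. Taking the median over all tested probes of a gene turned *Higd1a* to -0.39. With each array left out in turn, the log2 fold change ran from -0.75 to 0.028 for *Hk1*, -0.46 to 0.18 for *Hk2*, -0.13 to 0.095 for *Gpi1*, -0.41 to 0.34 for *Pfkl*, -0.10 to 0.42 for *Pfkp*, -0.042 to 0.14 for *Aldoa*, -0.11 to 0.48 for *Tpi1*, -0.58 to 0.090 for *Eno1*, -0.81 to 0.0039 for *Eno2*, -0.23 to 1.23 for *Ldha*, -0.45 to 1.02 for *Slc2a1*, -0.90 to 0.088 for *Slc2a3*, -0.21 to 1.27 for *Slc16a1*, -0.45 to 1.02 for *Slc16a3*, -0.14 to 0.17 for *Pdk1*, -0.094 to 1.13 for *Pdk3*, -0.54 to 0.42 for *Pfkfb2*, -0.066 to 0.59 for *Pfkfb3*, -0.74 to 0.48 for *Pfkfb4*, -0.010 to 0.089 for *Bnip3*, -0.0014 to 0.75 for *Bnip3l*, -0.26 to 0.66 for *Ddit4*, -0.56 to 0.19 for *Ndrg1* and -0.45 to 0.73 for *Higd1a*. The number of arrays limited the precision.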
